A study of Mus musculus with 6 samples.

Results

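This account describes what untreated cultured mouse neural stem cells expressed, from the control group of an RNA sequencing study. The members are the 2 libraries whose titles call them control neural stem cells, of 6 libraries in all. The libraries carry the numbers 8 and 11 in their titles and are named by them here, and a pair of values is always given for library 8 first and library 11 second. The study set the redox state of such cultures to different levels for 48 h, with 2 libraries each of control, PQ and NAC. The labels spell out neither abbreviation, and no treated library is compared here. The source is given as neural progenitor cells grown in N2 medium, which is serum-free, to which EGF and bFGF were added. The labels give no brain region, age, strain or passage, and nothing says that the libraries came from separate cultures, so the spread between them may be technical.

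Neural stem cells are the dividing cells of the nervous system that can give rise to neurons, astrocytes and oligodendrocytes. In culture they are kept dividing by EGF and bFGF, which act through receptor tyrosine kinases and the MAP kinase cascade. They are usually known by the intermediate filament protein nestin and the transcription factor SOX2, and growth factors can add features of the oligodendrocyte lineage such as OLIG2. Levels are given in FPKM, read fragments scaled to the length of the transcript and to the number of mapped fragments in the library, which allows genes of different length to be set beside each other. A gene is called present when it reached 1 FPKM in both libraries.

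All 4 genes that mark these cells were present at high levels. Nes, which encodes nestin (chr3:87971093-87980451, GRCm38), was at 91.9 and 87.7 FPKM. Sox2 (chr3:34649995-34652461) was at 141 and 164 FPKM, and Olig2, a basic helix-loop-helix factor of motor neuron and oligodendrocyte progenitors (chr16:91225550-91228677), at 328 and 321. Mki67, which encodes the Ki-67 protein of dividing cells (chr7:135689784-135716450), was at 104 and 101 FPKM. The libraries lay within 1.17-fold of each other for each of these genes. Ranked by mean level among all genes, Olig2 was number 183, Sox2 number 431, Mki67 number 696 and Nes number 812. None of these markers went against the label of neural stem or progenitor cells. In bulk RNA a gene made by few cells and a gene made weakly by all cells cannot be told apart.

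The libraries held summed expected counts of 10040827 and 9849392, and listed 15274 and 15193 genes above 0. They listed 14479 genes in common, and the 1509 genes listed in 1 library only had a median of 1 count. The number of genes present was 11404, of which 6437 reached 10 FPKM in both libraries, 676 reached 100 and 29 reached 1000. Among the 21900 protein-coding genes of the annotation 49.9% were present, and the shares of each gene list below are read against this value. Across the 15988 genes listed in either library, Pearson's r of log2(FPKM + 1) was 0.992 and Spearman's rho 0.985, as a description across genes, which are not independent. The tables differ, and over 13174 genes their counts lay further apart than counting alone gives, with a chi-square of 6.62 for each degree of freedom. The part of GC content in this spread was not tested. The tables list only genes above 0: a gene that some library of the series lists was counted and has a measured 0, while a gene in none of the 6 tables may not have been in the annotation used and is given no level.

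A few housekeeping genes led the transcriptome. The 10 highest genes held 6.77% and 6.58% of summed FPKM, and the 100 highest held 24.98% and 24.69%, with 93 of these 100 in common. Gapdh, the glycolytic dehydrogenase, was first with 8033 and 7893 FPKM. Eef1a1, the translation elongation factor that brings aminoacyl-tRNA to the ribosome, followed with 4989 and 5250.1, and then Fth1, the ferritin heavy chain that stores iron, with 2731 and 2704. Vim, the intermediate filament vimentin of immature neural cells, was the fourth with 2323 and 2171 FPKM, and Lgals1, the carbohydrate-binding galectin-1, the fifth with 2131 and 2269.

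Of the 25 highest genes, 7 were glycolytic, 7 encoded cytosolic ribosomal proteins and 2, Eef1a1 and Tpt1, stood in the list of translation factors. The glycolytic genes besides Gapdh were Pkm (1853 and 1712), Gpi1 (1720.5 and 1393), Eno1 (1757 and 1289), Aldoa (1665 and 1342), Ldha (1374 and 1233) and Pgk1 (1373 and 1232). Eno1 reads are shared with Eno1b, a near-identical copy on another chromosome that held 1075 and 824 FPKM, so the split between them is uncertain and their sum was 2832 and 2113 FPKM. The ribosomal protein genes were Rpl23a, Rpl41, Rps26, Rpl26, Rpl35, Rpl17 and Rps24, with means of 1659 FPKM for Rpl23a down to 1146 FPKM for Rps24. Of the exonic bases of Rpl23a 59.7%, and of Rpl35 66.2%, lie opposite exons of another gene. Tpt1, the translationally controlled tumour protein and not itself an initiation or elongation factor, was at 1307 and 1538. The rest of the 25 were the peptidyl-prolyl isomerase Ppia (2075 and 2064), the chromatin-associated prothymosin Ptma (1529 and 1533), the alpha tubulin Tuba1a (1502 and 1443), the actin-severing cofilin Cfl1 (1377 and 1275) and the actin-binding thymosins Tmsb4x (1159.5 and 1273) and Tmsb10 (1189 and 1219). Genes with less universal roles came shortly after these. Odc1, the first enzyme of polyamine synthesis, was at 1126 and 1157, the secreted growth factor-binding protein Igfbp3 at 976 and 1092, the cyclin Ccnd1 at 999 and 966 and the interferon-induced membrane protein Ifitm3 at 989 and 928 FPKM.

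The stem cell list was present nearly in full. Of 25 genes of neural stem cells and radial glia 22 (88.0%) were present, and 19 had a mean of at least 10 FPKM. After Vim the highest were Fabp7, the brain lipid-binding protein of radial glia, at 741 and 800.5 FPKM, and the tetraspanin Cd9 at 290.1 and 284. The glutamate transporter Slc1a3, a radial glia and astrocyte protein, was at 92.0 and 106, the matrix glycoprotein Tnc at 77.6 and 72.9, the receptor phosphatase Ptprz1 at 60.6 and 62.1 and the gliogenic factor Sox9 at 47.1 and 38.4. Pax6 and Nr2e1, homeobox and nuclear receptor genes of forebrain stem cells, were near the same level with 10.9 and 12.6 and 10.2 and 10.2. Hes5 and Prom1 were among the members not present. Hes5, a canonical Notch effector, had 0 and 0.08, from 1 read in library 11, and Prom1, the stem cell surface protein CD133, had 0 and 0.06.

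Genes of cell division were all present. All 15 members of the proliferation list (100%) passed, and their means ran from 21.3 FPKM for Tyms, the thymidylate synthase, to 231 FPKM for Pcna, the DNA polymerase clamp. Top2a, which untangles replicated DNA, was at 163 and 162, the ribonucleotide reductase subunit Rrm2 at 146 and 140.5, and the mitotic cyclin Ccna2 at 105 and 110.5. The cyclin-dependent kinase inhibitor Cdkn1a, which encodes p21 and restrains the cycle, was at 242 and 243 FPKM in the same libraries. Cdkn2a, at the Ink4a/Arf locus, was at 19.1 and 16.6, and the proto-oncogene Myc at 36.9 and 32.1.

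Genes of oligodendrocyte progenitors ranged from the level of Olig1 to 0. Of 12 progenitor genes 9 (75.0%) were present. Olig1, the neighbour and relative of Olig2, was at 414 and 320.4 FPKM, the HMG box factor Sox8 at 32.5 and 34.5, the homeobox factor Nkx2-2 at 20.3 and 22.9 and the proteoglycan Bcan at 56.1 and 50.7. Cnp, a phosphodiesterase of the myelin lineage, was at 61.8 and 55.1. Pdgfra, the receptor that defines committed oligodendrocyte progenitors, was at 9.94 and 8.92, 33.0 and 35.9 times below Olig2. Sox10, which drives the lineage downstream of Olig2, and the receptor Gpr17 were at 0 in both libraries, although other libraries of the series list them. A floor of 3 counts puts Sox10 at no more than 0.110 and 0.112 FPKM per library. Cspg4, the NG2 proteoglycan, stayed under the threshold with 0.92 and 0.91.

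Most genes of myelin and of neurons were under the threshold. Of 11 myelin genes 1 (9.09%) was present, Ugt8a, a galactolipid enzyme, at 4.37 and 3.98 FPKM, while Mbp, a major myelin protein, was at 0.29 and 0.10. Of 24 neurogenic and neuronal genes 6 (25%) were present. They were the neurofilament genes Nefl (42.6 and 38.8) and Nefm (23.2 and 22.7), the microtubule protein Map2 (34.2 and 35.6), the synapsin Syn1 (6.77 and 4.91), the RNA-binding protein Celf4 (4.61 and 4.75) and the beta tubulin Tubb3 (1.30 and 2.38). The annotation places exons of another gene on the opposite strand over 32.8% of Nefl and 19.2% of Nefm. Whether counting used the strand is not given in the sources used here. Dcx, the microtubule protein of migrating neuroblasts, was at 0.08 and 0.01 FPKM, and Neurod1, a neuronal differentiation factor, at 0.04 and 0. Neurog1, Neurod2 and Tbr1, further neurogenic factors, were at 0 in both.

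The astrocyte list took a middle place, with 14 of 18 genes (77.8%) present. Gja1, the gap junction protein connexin 43, led with 124 and 128, before the sodium pump subunit Atp1b2 (96.9 and 83.2), the acyl-CoA synthetase Acsbg1 (72.2 and 70.1) and the aldolase Aldoc (46.5 and 41.8). The matricellular Sparcl1 (27.5 and 32.0), the membrane protein Mlc1 (27.1 and 27.3), Apoe (10.2 and 12.8) and Clu (10.7 and 9.93) were present as well. Other members of the list were near the threshold. Gfap, the astrocyte intermediate filament, was at 2.17 and 1.64 FPKM, the folate enzyme Aldh1l1 at 1.34 and 1.11, the water channel Aqp4 at 0.70 and 0.79 and the calcium-binding protein S100b at 0.42 and 0.85.

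Markers of cell types that such cultures could also hold were low. Microglia and blood cells had 3 of 20 genes present (15.0%), or 1 at a threshold of 2 FPKM, among them the purine receptor P2ry12 (1.28 and 1.52) and the lysosomal protein Cd68 (1.01 and 1.13). The defining microglial genes Aif1, Tmem119, C1qb and Trem2 were at 0 in both libraries, and Csf1r and Ptprc, a microglial receptor and the blood cell antigen CD45, were at 0.05 and 0 and 0.02 and 0. The endothelial list had 1 of 14 (7.14%), the VEGF receptor Flt1 at 13.3 and 12.4, while Pecam1 was at 0.21 and 0.16 and Cdh5 at 0 in both. The fibroblast and pericyte list had 3 of 16 (18.8%), summed to 99.5 and 112.8 FPKM. Most of this was Prrx1, a homeobox gene of mesenchyme and of some neural progenitors, at 91.0 and 105 FPKM. Col3a1, a fibrillar collagen of fibroblasts, was present at 5.11 and 4.97 and the mesenchymal factor Twist1 at 1.26 and 1.23. Col1a1, Dcn and Acta2, which fibroblasts and mural cells express strongly, were at 0.38 and 0.21, 0.06 and 0.28 and 0.04 and 0.12, and Pdgfrb was at 0 in both. Of 14 ependymal and choroid plexus genes 2 (14.3%) were present, Foxj1, the regulator of motile cilia, at 4.48 and 4.87 and Rsph1, a radial spoke protein, at 1.91 and 3.63. Pluripotency genes had 2 of 12 (16.7%), Klf4 (12.3 and 15.4) and Nanog (1.09 and 1.00), with Lin28a at 0 in both.

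**Figure D1:**
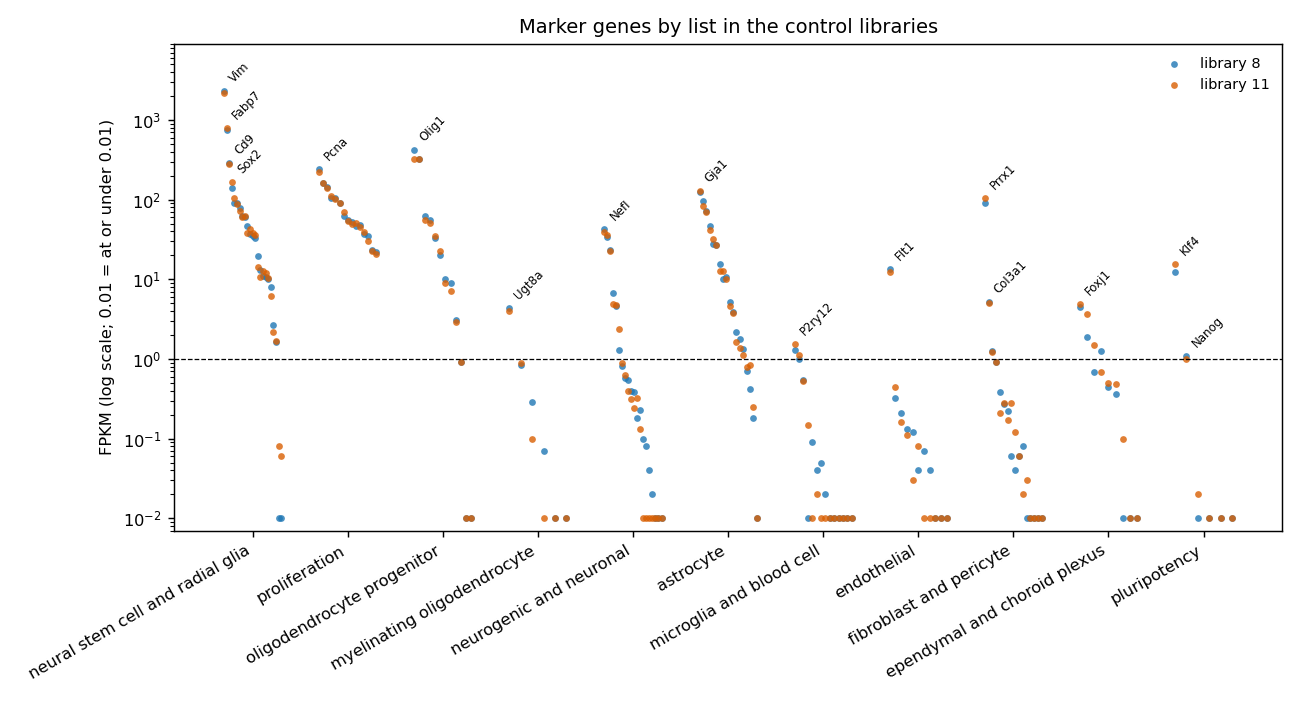
FPKM of marker genes in the control libraries on a log scale, 1 pair of points per gene (library 8 blue, library 11 orange) in descending order within each list; genes in none of the 6 tables and genes not reported here are left out, values at or under 0.01 are drawn at 0.01 and the dashed line is at 1 FPKM. Of the stem cell genes 19 of 25 and of the proliferation genes all 15 have a mean of at least 10 FPKM, while few genes of the myelin, endothelial and microglial lists lie above the line.

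Transcription factors that divide the body axis gave a mixed pattern. Of 15 forebrain and dorsal factors 7 (46.7%) were present. Six3, a homeobox gene of the anterior forebrain and eye, was the highest with 38.8 and 40.5 FPKM, then the cortical selector Lhx2 with 13.6 and 10.6, Pax6, and Emx2, a dorsal forebrain homeobox gene, with 6.54 and 7.76. Of 14 ventral forebrain factors 5 (35.7%) were present, or 3 at a threshold of 2 FPKM, Six3 again, which stands in both lists, Meis2 (9.64 and 10.0), Dlx1 (4.86 and 5.65), Sp9 (1.73 and 1.44) and Dlx2 (1.36 and 1.34), while Nkx2-1, the selector of the medial ganglionic eminence, was at 0.13 and 0.23. Midbrain and hindbrain factors had 4 of 17 (23.5%). They were Irx3 (6.30 and 7.17), Lmx1b (3.15 and 3.13), En1 (3.19 and 2.38) and Gbx2 (3.42 and 1.82), and 43.5% of the exonic bases of Gbx2 lie opposite exons of another gene.

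Hox genes, which pattern the hindbrain and spinal cord, were present from 1 of their 4 clusters only. The HoxA cluster had 6 of 11 genes present, and the HoxB, HoxC and HoxD clusters had 0 of 10, 0 of 9 and 0 of 9. Of all 39 Hox genes 15.4% were present, and 22 were in none of the 6 tables. Hoxa2, near the 3′ end of the cluster, was at 3.44 and 4.31 FPKM. Levels were higher for Hoxa3 (12.1 and 11.8), Hoxa4 (14.6 and 15.6) and Hoxa5 (24.7 and 24.2), the highest of all (chr6:52201754-52204587). Hoxa6 was under the threshold with 0.59 and 0.45, its neighbour Hoxa7 was at 12.5 and 13.8, Hoxa9 was at 0 in both, and Hoxa10 was at 0.09 and 0.14. No gene of the other clusters passed 0.18 FPKM. Within Hoxa3, Hoxa4 and Hoxa7 25.4%, 16% and 20.4% of exonic bases lie opposite another gene. Hoxa5 and Hoxa6 have none.

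**Figure D2:**
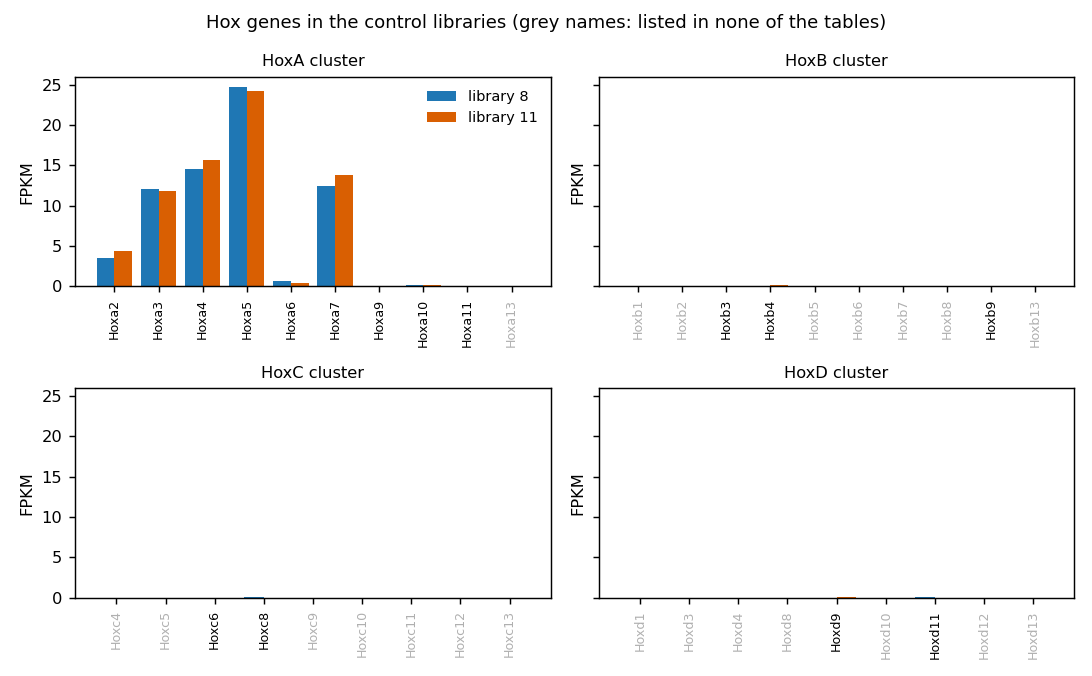
FPKM of the Hox genes by cluster, in order of gene number, as bars for library 8 (blue) and library 11 (orange) on a common linear scale; names in grey are listed in none of the 6 tables. The bars run from Hoxa2 to Hoxa7 with a drop at Hoxa6, and no bar of the HoxB, HoxC or HoxD clusters exceeds 0.18 FPKM.

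Y-linked genes were present and Xist was not. Eif2s3y, a translation initiation factor subunit, was at 41.5 and 48.8 FPKM, the RNA helicase Ddx3y at 28.8 and 33.1, and the demethylases Uty and Kdm5d at 7.41 and 8.71 and 6.37 and 7.85. Xist, the RNA that silences 1 X chromosome in female cells, was at 0.03 and 0.04.

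Promoters of present genes were richer in CpG than those of genes measured at 0, with single genes on either side of this trend. The 250 bases before each start of a protein-coding gene were read from RefSeq (GRCm38.p6), 21263 windows of 17492 genes. The median number of CpG was 4 for genes at 0 FPKM that another library lists (884 windows), 6 above 0 and under 1 FPKM (3350), 14 from 1 to under 10 FPKM (4674), 17 from 10 to under 100 (6182) and 18 from 100 FPKM (704). Windows with at least 10 CpG made up 25.5%, 36.8%, 68.1%, 78.2% and 82.7% of these classes, and 50.1% of all windows. Genes in none of the 6 tables, which have no level, had a median of 2 CpG and 10.9% such windows (5469 windows). The windows below were chosen after the levels were seen, to show a pair of high genes, a pair of low ones and the elongation factor pair. Each is the strand of the gene, 5′ to 3′, ending at the base before the start, with each CpG in capitals. Sox2 (chr3:34649745-34649994, plus strand, 27 CpG) and Fabp7 (chr10:57784673-57784922, plus strand, 4 CpG) are both high. Hes5 (chr4:154960673-154960922, plus strand, 32 CpG) and Gfap (chr11:102897201-102897450, minus strand, 2 CpG) are both near or under the threshold. Eef1a1 (chr9:78481725-78481974, minus strand, 18 CpG) was the second highest gene, and Eef1a2 (chr2:181157016-181157265, minus strand, 4 CpG), its neuronal and muscle relative, was at 0.
Sox2: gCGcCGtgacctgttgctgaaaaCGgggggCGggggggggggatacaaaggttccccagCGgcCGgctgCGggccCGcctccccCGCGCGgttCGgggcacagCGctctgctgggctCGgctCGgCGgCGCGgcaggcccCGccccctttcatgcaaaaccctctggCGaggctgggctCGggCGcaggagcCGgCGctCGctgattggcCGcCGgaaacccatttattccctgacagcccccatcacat
Fabp7: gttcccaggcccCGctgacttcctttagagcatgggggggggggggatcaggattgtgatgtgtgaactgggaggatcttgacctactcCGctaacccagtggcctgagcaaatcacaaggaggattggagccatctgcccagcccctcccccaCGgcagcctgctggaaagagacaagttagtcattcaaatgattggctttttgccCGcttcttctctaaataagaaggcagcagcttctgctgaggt
Hes5: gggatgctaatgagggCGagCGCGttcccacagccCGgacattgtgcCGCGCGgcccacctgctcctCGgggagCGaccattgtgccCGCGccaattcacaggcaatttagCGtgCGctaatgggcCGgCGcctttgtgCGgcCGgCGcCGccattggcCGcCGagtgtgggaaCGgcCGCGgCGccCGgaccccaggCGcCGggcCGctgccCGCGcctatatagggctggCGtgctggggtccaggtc
Gfap: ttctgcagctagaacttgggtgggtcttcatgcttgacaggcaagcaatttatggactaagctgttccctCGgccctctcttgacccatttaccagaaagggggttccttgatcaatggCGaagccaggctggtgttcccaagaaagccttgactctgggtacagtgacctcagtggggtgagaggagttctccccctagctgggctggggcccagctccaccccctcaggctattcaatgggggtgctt
Eef1a1: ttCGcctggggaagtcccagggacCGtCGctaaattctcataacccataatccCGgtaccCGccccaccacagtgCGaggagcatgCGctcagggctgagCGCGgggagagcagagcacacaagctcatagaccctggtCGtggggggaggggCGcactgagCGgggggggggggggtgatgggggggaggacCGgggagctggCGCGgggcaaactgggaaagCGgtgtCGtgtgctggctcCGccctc
Eef1a2: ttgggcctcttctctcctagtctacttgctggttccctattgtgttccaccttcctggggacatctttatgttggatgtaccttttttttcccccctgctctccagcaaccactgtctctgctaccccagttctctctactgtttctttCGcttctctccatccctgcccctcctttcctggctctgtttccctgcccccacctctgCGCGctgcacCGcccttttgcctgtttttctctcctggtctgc
The number of CpG thus ran from 4 to 27 among the high genes Sox2 and Fabp7 and from 2 to 32 among Gfap and Hes5. A count of letters is a description of the sequence and not a measure of methylation or of activity.

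Signalling genes were examined from ligand to target, starting with the pathways of the added growth factors. Of 11 EGF family ligands 6 (54.5%) were present. Hbegf, a membrane-anchored heparin-binding ligand of the EGF receptor, was at 84.7 and 91.6 FPKM, and Areg and Ereg, further ligands of that receptor, were at 34.4 and 43.0 and 6.62 and 7.58. Egf itself, supplied in the medium, was at 0.25 and 0.32. Among the receptors Egfr was at 27.4 and 29.96 and Erbb2, its dimer partner without a ligand of its own, at 5.61 and 4.49, while the neuregulin receptors Erbb3 and Erbb4 were at 0.20 and 0.08 and 0.02 and 0.09.

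The FGF system had receptors but few ligands. Of 22 FGF ligand genes 2 (9.09%) were present, the intracellular Fgf11 (7.79 and 6.70) and Fgf1 (5.82 and 5.80). Fgf2, the gene of bFGF, was at 0.30 and 1.06 FPKM, on both sides of the threshold. Fgfr1 was at 71.2 and 63.0, Fgfr3 at 15.4 and 12.8, Fgfr2 at 1.38 and 0.96 and Fgfr4 at 0.13 and 0. The decoy-like receptor Fgfrl1 was at 102 and 85.3, and the heparan sulfate co-receptors Sdc3 and Sdc4 were higher still with 185 and 157 and 165 and 144. Of 17 genes that EGF and FGF signals induce, many of them feedback inhibitors, 15 (88.2%) were present. The ETS factor Etv5 led with 204 and 197, followed by the MAP kinase inhibitor Spred1 (98.5 and 105), the EGF receptor antagonist Lrig1 (79.3 and 74.3), Dusp6, the phosphatase of ERK (75.4 and 75.2), and Phlda1 (69.1 and 80.9), with 33.0% of its exonic bases opposite another gene. The members not present were Il17rd (0.85 and 0.49) and Spry3 (0.02 and 0).

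Of 45 other receptor tyrosine kinases 20 (44.4%) were present, near the share of all protein-coding genes. The highest were Axl, a receptor of the TAM family, at 86.1 and 77.9 FPKM, the Wnt co-receptor Ryk at 70.7 and 72.5, and the collagen receptor Ddr1 at 72.9 and 61.0. The IGF and insulin receptors Igf1r and Insr were at 22.6 and 18.6 and 13.7 and 12.8, Met at 10.1 and 8.89 and Kit at 6.60 and 5.30. Pdgfrb, Flt4 and Tie1 were at 0 in both, and the neurotrophin receptors Ntrk2 and Ntrk3 were at 0.88 and 0.78 and 4.97 and 5.29.

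Notch genes were present with an uneven set of Hes and Hey genes. Of 4 receptors 3 (75.0%) were present, led by Notch1 with 30.6 and 25.7 FPKM, and of 8 ligands 2 (25%), Jag1 (15.3 and 16.9) and Dner (15.2 and 14.3). The delta ligand Dll1 was at 1.15 and 0.94. Of 10 Hes, Hey and Nrarp genes, listed here as Notch targets, 4 (40.0%) were present. They were the repressor Hes1 (35.4 and 37.8), the Hes1 antagonist Hes6 (31.7 and 24.9), Hey1 (8.01 and 5.96) and Nrarp (2.50 and 2.54). Of the exonic bases of Nrarp 79.4% lie opposite another gene. Hes6 stands in the list as a family member, and whether these genes depended on Notch was not tested. Hes1 was thus high in the cultures in which Hes5 gave 1 read.

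Most receptors of the Wnt and BMP pathways were present, with few Wnt ligands. Of 19 Wnt genes 4 (21.1%) were present, or 2 at a threshold of 2 FPKM, and Wnt7b, a ligand of the canonical pathway, was 13.8 and 16.2 times above the next, Wnt5a, with 115 and 95.7 against 8.33 and 5.92 FPKM. Of 12 Frizzled and LRP receptor genes 11 (91.7%) were present, with Fzd1 at 34.5 and 38.0 and Lrp5 at 30.9 and 27.0, and Fzd6 under the threshold with 0.12 and 0.17. Bmpr1a, the type I BMP receptor, was at 51.4 and 53.9, Bmpr1b at 0.04 and 0.06, and 8 of 12 (66.7%) BMP and activin receptor genes were present. The BMP targets Id2, Id3 and Id1, inhibitors of basic helix-loop-helix factors, were at 63.0 and 56.2, 35.7 and 32.1 and 23.0 and 24.7, and the inhibitory Smad7 and Smad6 at 0.67 and 0.48 and 0.40 and 0.44. Of 14 hedgehog genes 8 (57.1%) were present. Smo, the signal transducer, was at 32.6 and 28.8, the receptor Ptch1 at 16.8 and 14.1 and the co-receptor Gas1 at 33.8 and 33.1, whereas the ligand Shh was at 0 in both and the target Gli1 at 0.19 and 0.08 FPKM.

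**Figure D3:**
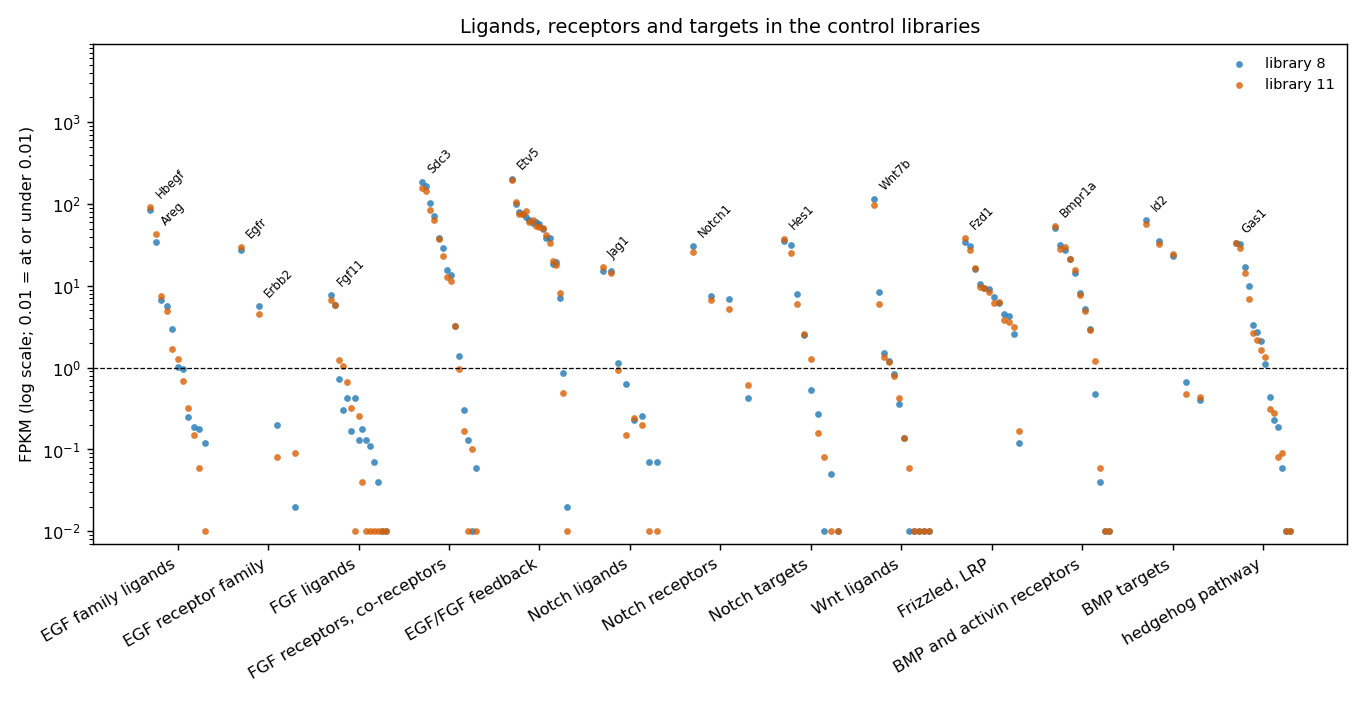
FPKM of ligands, receptors and targets of 6 pathways in the control libraries on a log scale, 1 pair of points per gene (library 8 blue, library 11 orange), drawn as in the plot of marker genes with a dashed line at 1 FPKM. Most EGF and FGF feedback genes and Frizzled receptors lie above the line, most FGF and Wnt ligands lie under it, and Wnt7b stands alone at 114.9 and 95.7 FPKM.

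Receptors for transmitters other than purines were few. The ionotropic glutamate receptors had 5 of 18 (27.8%) present, the kainate subunits Grik5 (17.8 and 15.5), Grik1 (8.2 and 8.22) and Grik3 (8.02 and 7.17), the AMPA subunit Gria3 (10.0 and 9.52) and, near the threshold, the NMDA subunit Grin1 (1.09 and 1.07). Gria2, the subunit that makes AMPA receptors impermeable to calcium, was at 0.07 and 0.20. Of 8 metabotropic glutamate receptors 1 (12.5%) was present, Grm5, with 22.6 and 22.4 FPKM. GABA receptors had 2 of 21 (9.52%), and Gabbr1, a subunit of the metabotropic receptor, was the highest with 8.74 and 7.92. Monoamine and acetylcholine receptors had 7 of 37 (18.9%), among them the beta adrenergic receptor Adrb1 (14.3 and 14.6) and the muscarinic Chrm3 (6.79 and 7.34). Purine receptors had 9 of 19 (47.4%), or 5 at a threshold of 2 FPKM, and the ATP-gated channel P2rx7 was the highest with 26.9 and 27.9. Voltage-gated sodium channels, which fire action potentials, had 2 of 13 (15.4%). Each of these shares was below the 49.9% of all protein-coding genes, except that the 47.4% of the purine receptors was near it.

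Glycolysis was expressed more than any other metabolic list examined. All 16 genes were present, 11 of them at a mean of at least 100 FPKM, and they summed to 20415 and 18414 FPKM, or 4.72% and 4.19% of the total. The glucose transporters Slc2a1 and Slc2a3 were at 178 and 152 and 161 and 127, and the lactate and pyruvate carriers Slc16a1 and Slc16a3 at 42.1 and 38.9 and 26.8 and 25.9. All 16 genes were lower in library 11, by a median of -0.15 on the log2 scale, and 0 of them by 1.5-fold. Of 22 genes of the tricarboxylic acid cycle 21 (95.5%) were present with a sum of 1959 and 1961 FPKM, led by the malate dehydrogenase Mdh2 (242 and 225) and the citrate synthase Cs (226 and 204). The member not present was Pcx, the pyruvate carboxylase that refills the cycle (0.31 and 0.46). All 23 nuclear genes of the respiratory chain and ATP synthase were present, with a sum of 4144 and 4242, and the ATP synthase beta subunit Atp5b was the highest (751 and 728).

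Lipid and one-carbon synthesis were present in full or nearly so. All 20 cholesterol synthesis genes passed, from Hmgcs1, an early enzyme of the pathway (372 and 326), to Hsd17b7 (14.7 and 12.2). Only 1 of the 20 was higher in library 11. The median log2 ratio of library 11 to library 8 was -0.23, and 0 of them differed by 1.5-fold. Fatty acid genes had 15 of 16 (93.8%) present, and the desaturase Scd2 was the highest (909.6 and 751), with the fatty acid synthase Fasn at 58.2 and 38.7. Fasn was 1 of the genes 1.5-fold or more higher in library 8. All 15 serine and one-carbon genes were present, led by the aminotransferase Psat1 (218 and 245), and so were all 11 of the pentose phosphate and NADPH list, led by Tkt, Idh2 and Taldo1. Of 17 hypoxia response genes 14 (82.4%) were present, the oxidoreductase Ero1a (651 and 689), the mitophagy receptor Bnip3 (434 and 459) and the angiogenic factor Vegfa (286 and 279) above all, whereas the carbonic anhydrase Car9 was at 0.56 and 0.79. The oxygen in the incubator is not given in the labels.

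The translation machinery took a larger share of FPKM than any other list. All 82 cytosolic ribosomal protein genes found in the annotation were present, and they summed to 51706 and 54561 FPKM, 11.9% and 12.4% of the total. Their median was 583 FPKM, but the lowest, Rpl34, was at 5.00 and 2.31, Rps15a at 29.3 and 33.2 and Rpl30 at 33.5 and 26.4. These proteins are made in equal numbers for each ribosome. Their genes have many near-identical processed copies in the genome that can share reads, and the part of such copies in these values was not tested. Bc1, a short noncoding RNA transcribed by RNA polymerase III, was at 576 and 753 FPKM, and the nuclear RNAs Neat1 and Malat1 at 102 and 125 and 44.98 and 44.0. Protein-coding genes held 98.2% and 98.0% of summed FPKM.

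Within gene families, 1 member often carried nearly all of the level. In 27 of 77 families the leading member held at least 90% of the family's FPKM in both libraries. In energy metabolism these were Pkm over Pklr, with Pklr at 0 in both, Aldoa (97.3% and 97.0% of its family), Pgam1 (99.9% in both) and Ldha (96.2% and 95.8%). Ldha, the muscle-type subunit of lactate dehydrogenase, was 25 and 23.1 times above Ldhb, the heart-type subunit (55.0 and 53.3 FPKM). The creatine kinase was Ckb alone (642 and 565), and the cytochrome oxidase subunits were Cox4i1 and Cox6a1. Enolase was Eno1 (95.9% and 94.3%), without counting Eno1b. Eef1a2 was at 0 in both, under a floor of 0.142 and 0.144 FPKM for 3 counts, so Eef1a1 was the only gene of this pair that was detected.

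Cell cycle, chromatin and lineage families had leaders too. Ccnd1 held 90.3% and 90.8% of the D-type cyclins, with Ccnd2, the D-type cyclin of many neural progenitors, at 80.3 and 80.6. Cdk4 was at 337 and 310.1 and Cdk6 at 7.33 and 7.92. Ccna2 made up 98.9% and 98.7% of its family, Ezh2, the methyltransferase of the Polycomb complex, 95.9% and 95.7% over Ezh1, and Myc 92.3% and 94.0%. Sox2 held 90.5% and 93.1% of the SOXB1 family, with Sox3 at 13.2 and 10.53 and Sox1 at 1.64 and 1.70. In the SOXE family Sox9 and Sox8 (32.5 and 34.5) stood near each other without Sox10. Sox7 was present at 13.1 and 12.5, while Sox18 of the same SOXF family was at 0 in both. Slc1a3 held 95.4% and 96.3% of the glutamate transporters over Slc1a2 (3.84 and 3.75). Stmn1 held 99.9% and 100% of the stathmins, and Elavl1 91.7% and 91.5% of the ELAV-like family, whose other members are neuronal. Dnmt1, the maintenance DNA methyltransferase, was at 89.0% and 88.1%, with Dnmt3a at 11.2 and 11.3 and Dnmt3b at 0.55 and 0.41.

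Other families were shared. Fabp7 and Fabp5 (670.3 and 618) held 52.4% and 56.4%, and 47.5% and 43.5%, of the fatty acid binding proteins. Slc25a4 (361 and 393) and Slc25a5 (342 and 334) divided the ADP/ATP carriers, and Pfkp (63.4 and 62.0), Pfkl (66.0 and 53.4) and Pfkm (25.8 and 26.6) the phosphofructokinases. Hk1 was at 82.6 and 78.3 and Hk2 at 16.9 and 16.7. Among the nuclear factor I genes Nfib (63.1 and 59.7) and Nfix (66.9 and 53.7) were close, and the order of these genes differed between the libraries, as it did for Olig1 and Olig2 and for Pfkp and Pfkl. All 4 Pou3f genes and all 7 sirtuins were present, the latter led by Sirt2 (34.5 and 28.5). The metallothioneins Mt1 (1143 and 970.3) and Mt2 (789 and 745) were among the highest genes and the brain form Mt3 was at 121 and 111, and 73.5% of the exonic bases of Mt2 lie opposite another gene. No NADPH oxidase gene was present, and the highest, Nox4, was at 0.25 and 0.26. The alpha tubulins Tuba1a, Tuba1b and Tuba1c are nearly identical in sequence, so their split is uncertain and their sum was 2304 and 2191 FPKM.

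**Figure D4:**
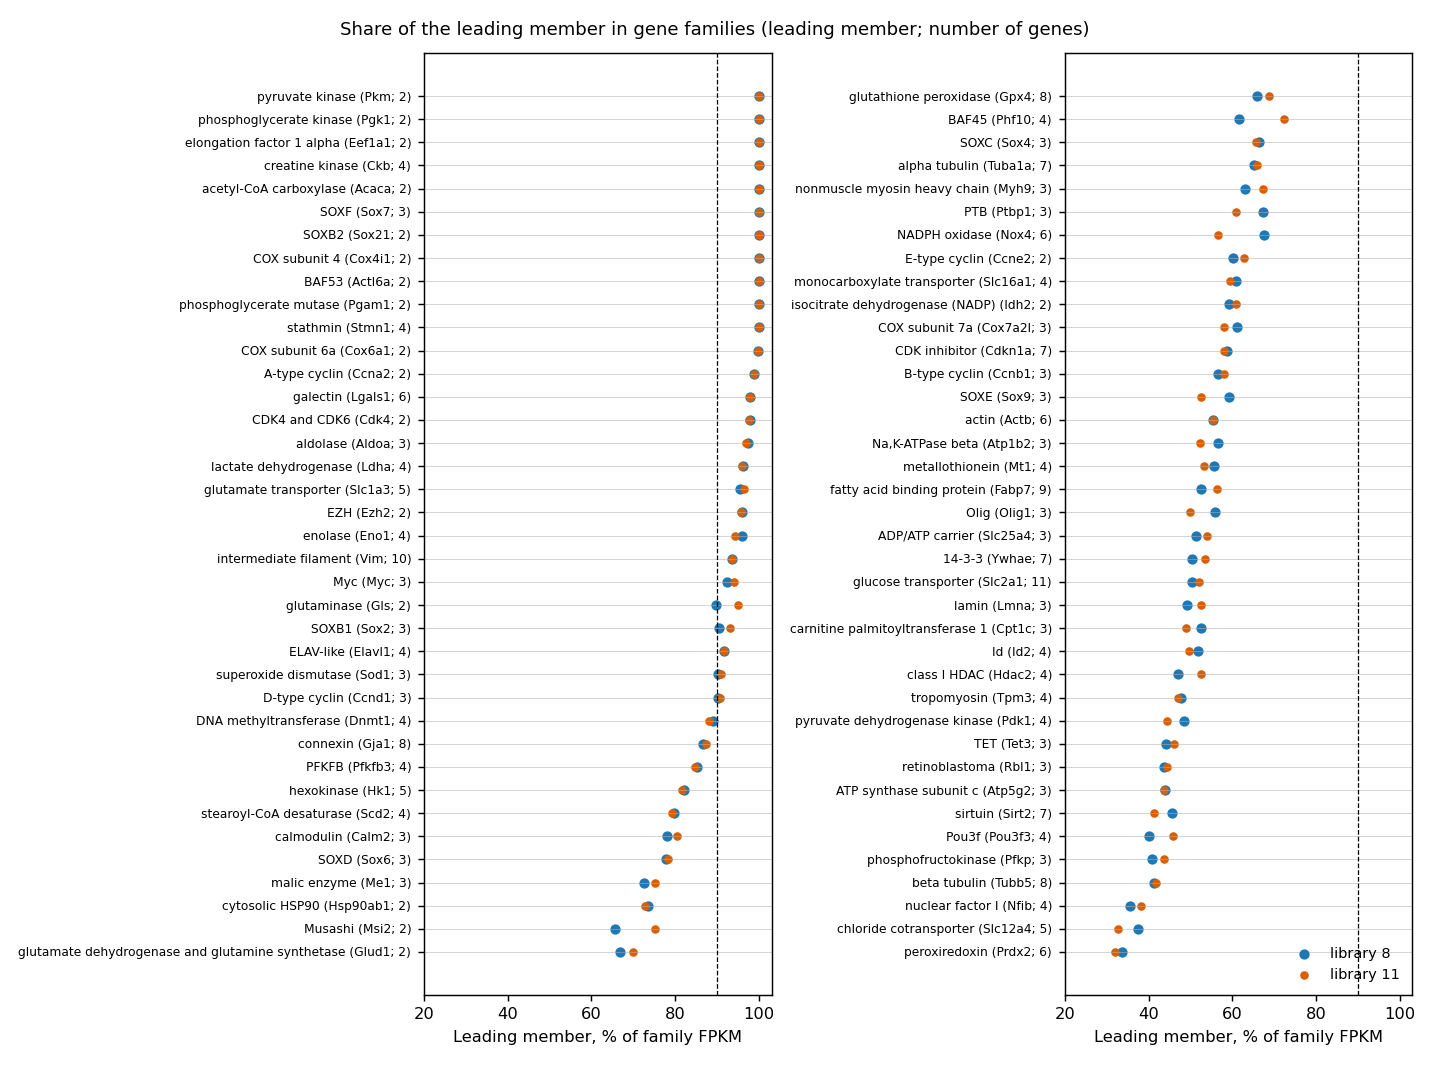
Share of the leading member in the summed FPKM of each gene family drawn, in percent, for library 8 (blue) and library 11 (orange), with the leading member and the number of genes in brackets and a dashed line at 90%. The families with both points at or above 90% stand in the upper part of the left panel, and the lowest share is that of Prdx2 among the peroxiredoxins (33.6% and 32.0%).

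Most genes of the matrix and adhesion lists were present, among them laminins and integrins. Of 27 matrix genes 18 (66.7%) were present, led by Sparc (422 and 394), Spp1, which encodes osteopontin (399.8 and 408), the growth factor pleiotrophin Ptn (121 and 125) and fibronectin Fn1 (118 and 104). The laminin chains Lamc1 and Lamb1 were at 76.5 and 76.2 and 66.9 and 70.1, the proteoglycans Vcan and Agrn at 22.2 and 24 and 29.7 and 24.9, while the basement membrane collagens Col4a1 and Col4a2 were at 0.45 and 0.44 and 0.28 and 0.44. Of 30 adhesion genes 24 (80.0%) were present, among them N-cadherin Cdh2 (101 and 103.27), the integrin Itgb1 (289 and 324) and Cd44, a hyaluronan receptor (94.0 and 96.8). Epithelial Cdh1 was at 0 and 0.02 and the neuronal L1cam at 0.02 and 0.02.

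The libraries differed from each other by 1.5-fold in few genes, and a set of stress genes stood out among them. At a mean of at least 5 FPKM there were 8895 genes, and the median gene differed by 1.10-fold, a median absolute log2 ratio of 0.13. By 1.5-fold or more, 78 (0.877%) were higher in library 11 and 44 (0.495%) in library 8. The largest ratios belonged to short or copied genes. Rpl37rt, a retrotransposed copy of Rpl37, was at 0 in library 8 and at 74.6 FPKM (478 counts) in library 11, and the pseudogenes Gm13363 (1.08 and 9.53) and Oaz1-ps (47.7 and 11.2) differed by 8.82-fold and 4.25-fold. Several others were genes of short RNAs with few counts, such as the microRNA gene Mir5114 (0 and 162.8 FPKM from 0 and 39.9 counts) and the small nucleolar RNA gene Snord19 (10.1 and 0 FPKM from 2 and 0 counts).

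Among longer protein-coding genes several of the largest ratios belonged to stress genes. Atf3, a stress-induced transcription factor, was at 2.57 and 7.76 FPKM, Ddit3, which encodes the stress factor CHOP, at 35.0 and 77.5, Nupr1, a stress-induced chromatin regulator, at 220.4 and 456 and the pseudokinase Trib3 at 19.2 and 39.2. Each was 2.04-fold to 3.02-fold higher in library 11. Nkain3 (3.62 and 7.89), which encodes a protein that binds the sodium pump, and Pcgf1 (3.60 and 7.68), a Polycomb subunit, had ratios of like size. So did the ribosomal protein gene Rpl36 (111.8 and 233.8), with a ratio above those of Nupr1 and Trib3, and Otub2 (5.77 and 11.6). In the other direction Shkbp1 (7.08 and 4.02) and Trp53i13 (6.93 and 3.98) were 1.76-fold and 1.74-fold higher in library 8. Atf3, Ddit3, Nupr1 and Trib3 belong to a list of 27 genes of the amino acid response, which the factor ATF4 drives, of which 25 were present. Of the 24 members with a mean of at least 5 FPKM, 13 were 1.5-fold or more higher in library 11 and 0 in library 8, beside 0.877% and 0.495% of all genes. The median log2 ratio of the list was 0.62, and 22 of 24 members were higher in library 11, all but Slc7a11 (179 and 172), the cystine transporter, and Ddit4 (109 and 96.0). Atf4 itself was at 189.9 and 277, the asparagine synthetase Asns at 98.4 and 161 and the amino acid transporter Slc7a5 at 78.9 and 138. The serine and one-carbon genes were higher in library 11 for 9 of 13 members at that mean, beside 47.2% of all genes, and 1 of them by 1.5-fold. Many of them are in the same response, so this is not a separate observation. With 2 libraries this is a difference between those libraries, and the direction of these genes in the control libraries was known from earlier results.

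The ratio of the libraries also moved with base composition. Across 8749 genes with a known GC content, Spearman's rho of the log2 ratio with the GC content of the transcript was -0.44, and the median log2 ratio ran from 0.13 in the lowest of 10 bins of GC content to -0.16 in the highest. The median GC content of the amino acid response genes was 52.8%, in a bin whose median ratio was -0.06. With each ratio centred on the median of its GC bin, 79 genes were higher in library 11 and 21 in library 8, and the amino acid response list had 15 and 0. The part of GC content in single ratios was not tested.

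**Figure D5:**
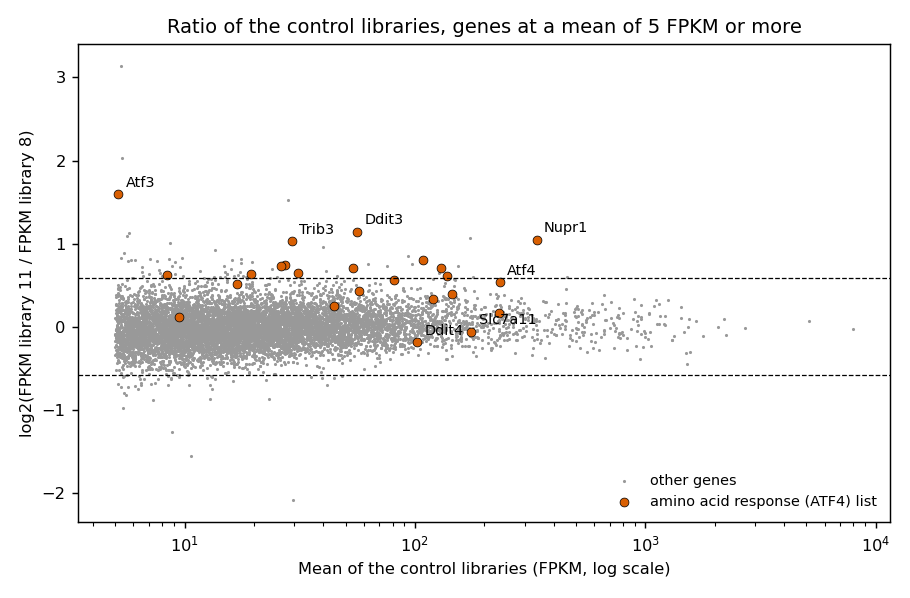
The log2 ratio of FPKM in library 11 to library 8 against their mean (log scale) for 8891 genes at a mean of at least 5 FPKM and above 0 in both, with the 24 amino acid response genes in orange and dashed lines at 1.5-fold. Most genes lie between the lines, and 22 of the 24 orange points lie above 0.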

How the data were processed

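RNA of 2 control libraries of cultured neural stem or progenitor cells was sequenced on a BGISEQ-500 instrument, per the labels' protocols, which name both rRNA depletion and oligo dT selection without saying which was used. The deposited tables hold an expected count (an estimated read count), an FPKM value and a length per gene, per the file headers. RSEM, HISAT2 (2.0.4) and Bowtie2 (2.2.5) are named, without their roles, in the submitters' processing notes, with mm10 as the build. Strand use and the gene annotation are not given in the sources used here.

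Genes missing from a table were set to 0. Names came from RefSeq (GRCm38.p6), and 45 of 15988 identifiers had none. A gene was present at 1 FPKM or more in both libraries. Ratios of the libraries were taken at a mean of at least 5 FPKM, and no test was made, since the work concerns 1 group of 2 libraries. With summed counts of 10040827 and 9849392, 3 counts are the floor for a gene at 0, which covers counting error only. The other 4 libraries were used only to see which genes were counted and their lengths. Exon overlap and GC content came from GENCODE models of GRCm38. Tools were Python 3.11.15, pandas 2.3.3, numpy 2.4.6, scipy 1.17.1, matplotlib 3.10.9 and, for the scaling alternatives, edgeR 4.0.16 and DESeq2 1.42.0 in R 4.3.3.

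The members, gene lists and families were chosen with earlier results of these data known. The genes named were, by rule, the 4 markers, the 25 highest genes, up to 4 of the highest members of each list with its sole present members and defining genes at or near 0, family leaders and members with at least 10% of a family, and the 10 largest and 10 smallest library ratios at a mean of 5 FPKM; not every gene this rule allows is printed, and the short RNA genes are given by example. Other genes, named for their role in the tissue, and families defined by symbol were added after the values were seen. Some members of the lists and families are not reported here by name or in the figures.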

Additional observations from a re-analysis of the deposited data

How the results depend on the processing

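Most results kept their values under the other settings tried. The number of genes present was within 1.5 times under a threshold of 0.5 or 2 FPKM, under TPM and with either library alone. So was the number over all lists. Among the 49 lists taken singly, 2 counts moved by more than 1.5 times at 0.5 FPKM (myelin to 3, ependymal to 4), 7 at 2 FPKM (microglia, ependymal, pluripotency and sodium channels to 1, Wnt ligands to 2, ventral forebrain to 3, purine receptors to 5), 1 without library 8 (FGF ligands, 4 present) and 0 without library 11. The 100 highest genes held 16.7% of the counts when ranked and summed by expected count. Among the 500 highest genes 466 were in common. The number of genes 1.5-fold apart, 122, rose to 518 at a mean of at least 1 FPKM and to 358 with no filter and a pseudocount of 1. The median absolute log2 ratio, 0.13, was 0.13 with TMM-scaled counts, with DESeq2 size factors, with library size only and with at least 50 counts and 200 bases, 0.15 at a mean of 1 FPKM, 0.12 with no filter and 0.11 after centring on GC bins. The correlation across genes was 0.98 with a pseudocount of 0.1 and 0.99 over genes above 0 in both libraries. The settings on GC content and on 50 counts were chosen after seeing the data. No paired analysis was possible because there is 1 group.

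Limits: 2 libraries give a spread and no test, and the labels do not say whether they are separate cultures. Genes at 1 to 5 FPKM differed by a median of 1.17-fold between the libraries and 12.3% of them by 1.5-fold, against 0.703% at 20 to 100 FPKM, so calls near the threshold are the least firm. FPKM of short genes rests on few counts, and near-identical copies share reads.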

Other observations

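Some large gene families had few members present. These families were defined by gene symbols after the levels had been seen. Of 1110 olfactory receptor genes 1 was present, Olfr613 at 5.2 and 5.16 FPKM, and of 353 vomeronasal receptor genes 1, Vmn1r58 at 9.56 and 10.2. Only 30 and 22 genes of these families are listed in any of the 6 tables, so most of them have no measured level. Of 53 keratins 1 was present, Krt10 (3.52 and 3.88), and of 23 claudins 1, Cldn12 (14 and 15.0). Only 14 of these keratins and 13 of these claudins are listed in any of the 6 tables, and the others have no measured level. Of 6 GATA factors 0 reached the threshold, and of 9 PAX factors 1 did, Pax6. Of 15 T-box factors 1 was present, Tbx2 (2.50 and 2.15). The 6 tables list 5 of the GATA, 7 of the PAX and 10 of the T-box factors.

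Further families held members at levels that a general stem cell list would not show. Of 37 chemokines 10 (27.0%) were present, Ccl2 (84.8 and 108), which attracts monocytes, the neutrophil attractant Cxcl1 (57.0 and 94.6) and the interferon-induced Cxcl10 (64.3 and 66.8) above all. Of 17 chemokine receptors 2 were present, Cxcr4 (13.5 and 13.3) and Cxcr2 (7.08 and 10.0), a receptor of Cxcl1. Potassium channel genes had 19 of 94 (20.2%) present, with the calcium-activated Kcnn4 (99.2 and 91.0) first and the glial inward rectifier Kcnj10 at 35.9 and 32.8. Of 57 clustered protocadherins 17 (29.8%) were present, and Pcdhgc3 was at 268 and 243 with the next, Pcdhga8, at 9.22 and 8.99; gamma protocadherins share their last exons, so reads may be divided among them. Of 44 collagens 12 were present, Col4a5 (45.7 and 39.8) and Col4a6 (35.1 and 29.4) first, the pair of type IV chains that lie side by side on the X chromosome. Of 7 IGF binding proteins 5 were present, and Igfbp2 was at 552 and 527 beside Igfbp3.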
